A study of Mus musculus with 39 samples.

Results

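The mitochondrial ribosomal proteins are the members described here. They were taken as every gene symbol that begins with Mrpl or Mrps and a number, is not marked as a pseudogene (-ps), and has a mean of at least 1 TPM (a length-adjusted share of a library's transcripts) in either of the study's 2 expression tables. This gave 77 members of the 28023 gene symbols in each table, 48 with an Mrpl symbol and 29 with an Mrps symbol. Of 82 matching symbols, 5 were left out as -ps, and none for a low mean.

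The mitochondrial ribosome translates the few respiratory chain proteins that are encoded by mitochondrial DNA. Its own proteins are encoded in the nucleus, made on cytosolic ribosomes and imported, and they form a small subunit that decodes the messenger RNA and a large subunit that joins the amino acids. Activated T cells depend on mitochondrial translation for respiration and for effector output, which is why these genes are of interest in T cells that infiltrate tumours. By role rather than by symbol, 50 of the 77 members belong to the large subunit and 26 to the small subunit. Mrps30 and Mrps18a sit in the large subunit despite their names. Mrps36 belongs to neither subunit and is a component of the 2-oxoglutarate dehydrogenase complex.

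The data are RNA sequencing of wild-type C57BL/6 mice carrying subcutaneous MCA-205 tumours, a transplantable fibrosarcoma line of the same strain. All mice first received a faecal microbiota transplant (FMT) made from human volunteers' stool, which had been under CZA, or CZA together with DAV132, for 6 days. DAV132 is a colon-targeted adsorbent. Tumour cells were implanted 2 weeks later, and at a size of 25 to 35 mm2 each mouse began a course of 4 injections, spaced by 3 days, of 250 µg of the PD-1 blocking antibody RMP1-14 or of the isotype antibody 2A3. Tissue was taken 2 days after the last injection. The 4 groups are thus CZA with isotype, CZA with anti-PD-1, CZA+DAV132 with isotype and CZA+DAV132 with anti-PD-1, and no group lacked FMT or CZA. CD8+ T cells sorted from tumours gave 20 libraries, 5 in each group. A separate run of the same experiment gave 19 libraries labelled bulk tumour, 5 in each group except 4 for CZA+DAV132 with isotype. The labels do not tie a library to a mouse or a stool, which means that p-values here reflect only how far libraries differ, perhaps for technical reasons, and the FMT arms differ in stool as well as in DAV132.

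TPM divides by transcript length and by the library's total, so levels of different genes can be set side by side, but it keeps no read depth, and neither depth nor counting error can be given. Features of the libraries touch the results. Entries for satellite and simple repeats (17 entries) took 0.342% to 25.6% of TPM in the CD8+ libraries of the first 3 groups, and 12% to 69.9% in CZA+DAV132 with anti-PD-1, with the highest shares in libraries 19 (69.9%) and 16 (29.1%). In the libraries labelled bulk tumour the share was 51.1% in T026, 13.9% in T985 and under 1% in the rest. The median level of the T cell transcript Cd3g was 2551 TPM in the sorted cells and 2386 TPM under the bulk tumour label. Others lay further apart, such as Cd3d (962 and 447 TPM) and Trac (1534 and 654 TPM), while Cd8a was higher under that label (268 and 352 TPM). The sum of 12 T cell transcripts had medians of 12868 and 9819 TPM. For the collagen transcript Col1a1, a fibroblast and fibrosarcoma marker, the medians were 3.39 and 13 TPM. With T cell transcripts this high under it, the bulk tumour label is used here as a label only. In such pooled RNA, fewer cells of a type and less RNA per cell cannot be told apart.

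The bases around the start sites of 3 members that passed a test and 1 that did not are shown first, because these genes are often described as sharing binding sites for the nuclear respiratory factor NRF1 and for ETS-family factors. RefSeq (build GRCm38.p6) gave a window of 250 bases before to 50 bases after the start for 68 of the 77 members. The lines below give the 150 bases before the RefSeq start of Mrpl17 and Mrpl22, whose RNA was much lower in one comparison below, of Mrpl10, whose RNA did not pass the test there, and of Mrps12, which starts beside another mitochondrial gene. They are read 5′ to 3′ on the gene's strand, with the NRF1 letters CGCATGCG and the ETS letters CCGGAAG in capitals. Gene positions are from GENCODE M21, whose starts differ from those of RefSeq, so some of the bases shown for Mrpl17, Mrpl22 and Mrpl10 lie within the GENCODE gene. Mrpl17 lies at chr7:105803206-105811099 and the bases shown at chr7:105811088-105811237 on the minus strand. Mrpl22 lies at chr11:58171661-58179565, with the bases shown at chr11:58171514-58171663 on the plus strand. Mrpl10 lies at chr11:97041560-97049213, with the bases shown at chr11:97041432-97041581 on the plus strand. Mrps12 lies at chr7:28739641-28741820, with the bases shown at chr7:28741822-28741971 on the minus strand.
Mrpl17: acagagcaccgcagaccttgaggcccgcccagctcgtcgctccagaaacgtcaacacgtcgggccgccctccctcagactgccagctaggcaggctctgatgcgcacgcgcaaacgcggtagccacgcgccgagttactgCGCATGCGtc
Mrpl22: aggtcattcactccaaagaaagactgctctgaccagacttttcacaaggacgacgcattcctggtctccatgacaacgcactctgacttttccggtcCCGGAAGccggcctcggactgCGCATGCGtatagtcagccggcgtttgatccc
Mrpl10: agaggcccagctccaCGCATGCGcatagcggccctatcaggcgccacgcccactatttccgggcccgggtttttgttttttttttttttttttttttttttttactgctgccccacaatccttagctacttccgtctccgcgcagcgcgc
Mrps12: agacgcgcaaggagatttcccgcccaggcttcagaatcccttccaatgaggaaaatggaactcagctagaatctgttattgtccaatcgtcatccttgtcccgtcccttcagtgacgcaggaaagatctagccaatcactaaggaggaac

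The NRF1 letters began 10 bases before the RefSeq start of Mrpl17, 32 before that of Mrpl22 and 135 before that of Mrpl10. Searched on both strands over the whole window, they were found in 7 of 68 members (10.3%) and in 4.55% of the 8970 tested genes with a window. The ETS letters were found in 25 members (36.8%) and 21.4% of tested genes, and the letters AAGATGGCG of a YY1 site in 8 members (11.8%) and 3.78% of tested genes. Outside the bases printed but within the window, ETS letters began 237 bases before the RefSeq start of Mrpl17. In Mrps12 they began 1 base after its start, so this member is among the 25. The TATA letters TATAAA were found in 5 members (7.35%) and in 8.65% of tested genes. In all, 35 members (51.5%) and 27.5% of tested genes held the letters of NRF1, ETS or YY1. A match is a description of the letters and not evidence of binding, and no match says only that these letters are not in this window.

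In the CD8+ libraries the most abundant member by mean TPM was Mrps21, a small subunit protein, with 183 to 978 TPM over the 20 libraries. Mrpl52 (93.5 to 493 TPM) and Mrps14 (70.8 to 454 TPM) followed. The lowest were Mrpl1 (3.34 to 16.6 TPM), Mrps27 (1.15 to 14 TPM) and Mrps2 (2.18 to 12.1 TPM). In the libraries labelled bulk tumour the order was different, led by Mrps18c (62.4 to 386 TPM), Mrpl42 (57.7 to 272 TPM) and Mrps16 (51.2 to 283 TPM), with Mrps27 (0 to 15.6 TPM), Mrps2 (0.0978 to 19.5 TPM) and Mrps23 at the low end. Mrps23 was listed at 0 in 14 of the 19 libraries there. The ranges of neighbouring members overlap in each of these orders. The tables may have been normalised separately, so levels are not tested across them.

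Anti-PD-1 was set against isotype in CD8+ T cells within the CZA+DAV132 arm to ask how the antibody shifts T cells in mice given that stool. Members of both subunits were lower under the antibody. The summed level of the 77 members was 6990 to 9207 TPM in the 5 isotype libraries (mean 8308 ± 812, SD, n = 5) and 1817 to 6354 TPM in the 5 anti-PD-1 libraries (mean 4418 ± 1851, SD, n = 5), with no overlap. Of 77 members, 60 fell past an adjusted p of 0.05 and none rose, by limma on log2(TPM + 1) with Benjamini-Hochberg adjustment over 12942 genes. Over all genes tested, 19.4% were called lower. The members' median log2 change was -1.02, with a range from -2.21 to -0.27, beside -0.34 for all genes tested.

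**Figure D1:**
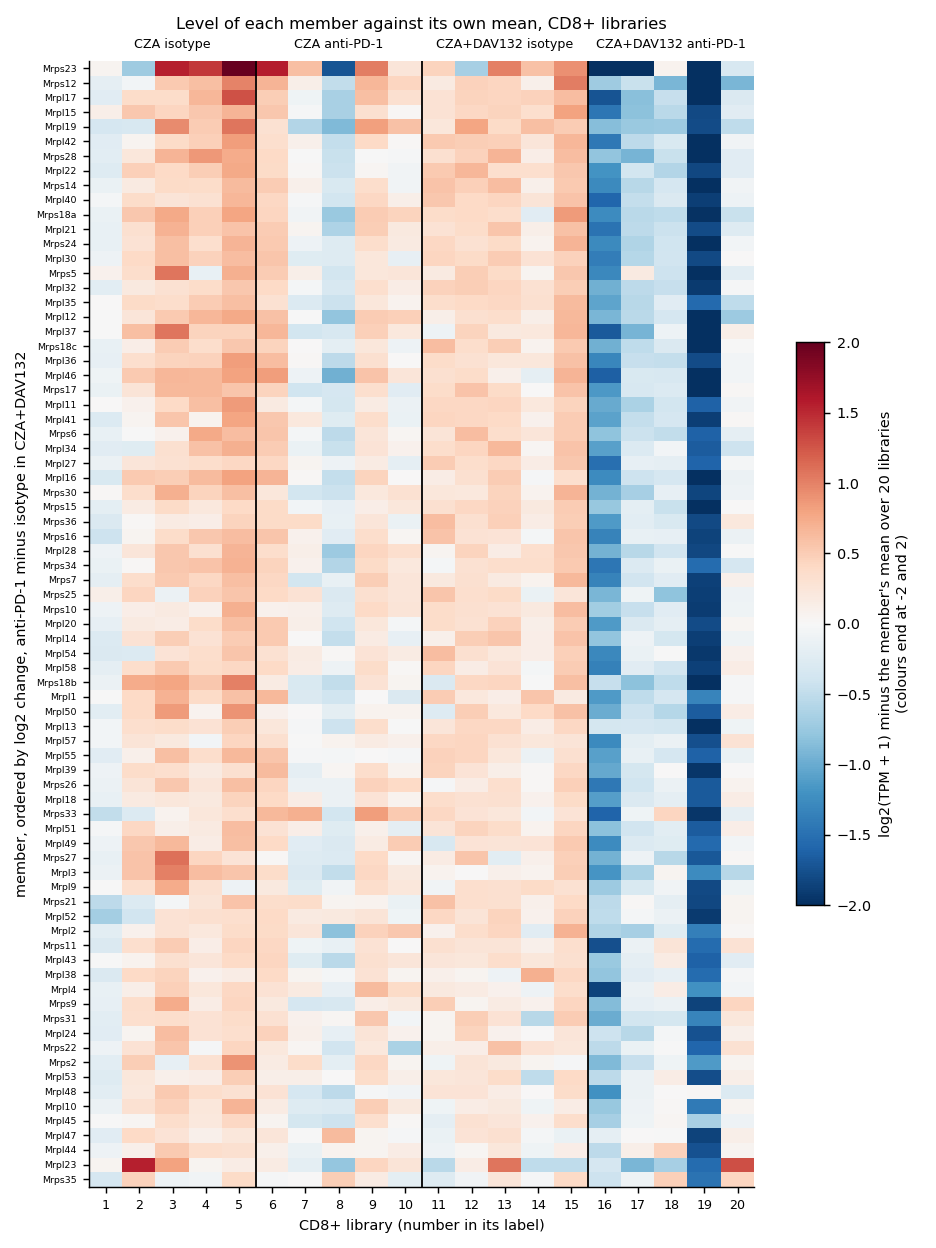
Each cell is the log2(TPM + 1) of a member (rows, ordered by log2 change) in a CD8+ library (columns, in groups of 5) minus that member's mean over the 20 libraries. Nearly the whole column is blue in libraries 16 and 19 (median deviations -1.05 and -1.80), paler in 17 and 18 (-0.37 and -0.25) and near white in 20 (-0.04).

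The anti-PD-1 libraries of this arm were not alike. Library 16 had 77 of 77 members below their own mean and library 19 had 76, against 73 in library 17, 64 in library 18 and 45 in library 20. These counts are in TPM, and the same count over all genes was not made. After median-ratio scaling, the summed levels of the members in libraries 16 and 19 (5155 and 5200) lay inside the range of the others in the group (5018 to 5508). Without libraries 16 and 19, which also have the highest shares of repeat entries, 21 of 77 members were called lower beside 5.2% of all genes, and the median change was -0.53. The direction was negative for 77 of 77 members in the main fit and for 75 of 77 without these libraries. The median of all genes tested was negative as well in the main fit (-0.34), and the share of all genes with a negative change was not counted.

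The large subunit forms the peptide bond, and 40 of its 50 proteins fell, with a median log2 change of -1.0. Mrpl35, a large subunit protein, was at 18, 18.4, 19, 19.2 and 22.6 TPM under isotype and at 4.17, 6.34, 9.31, 9.65 and 11.9 TPM under anti-PD-1. Every anti-PD-1 value lay below every isotype value. Its log2 change was -1.21 ± 0.23 (SE), with an adjusted p of 0.00589 by limma. Mrpl15, a protein with a bacterial counterpart, was at 115, 119, 125, 128 and 164 TPM under isotype and at 26.2, 33.9, 52.4, 64.1 and 79.9 TPM under anti-PD-1. These groups did not overlap either, and the log2 change was -1.43 ± 0.27 (adjusted p = 0.00589, limma).

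At the polypeptide exit tunnel, through which the nascent chain leaves towards the inner membrane, 2 of the 6 listed members fell. Mrpl17 was at 119, 131, 132, 134 and 149 TPM under isotype and at 22.6, 28.6, 53.9, 70.6 and 78.9 TPM under anti-PD-1. Mrpl22 was at 75.8, 75.9, 86.5, 87.5 and 95.2 TPM under isotype and at 16.2, 25.6, 39.5, 46.1 and 51.2 TPM under anti-PD-1. Neither pair of groups overlapped, and the log2 changes were -1.52 ± 0.33 for Mrpl17 (adjusted p = 0.00773, limma) and -1.32 ± 0.27 for Mrpl22 (adjusted p = 0.00686). The other 4 tunnel proteins in the list, Mrpl23, Mrpl24, Mrpl45 and Mrpl47, did not pass. Mrpl45, the contact of the ribosome with the inner membrane, was at 13, 15.8, 17.7, 18.6 and 19.3 TPM under isotype and at 9.05, 9.14, 13.7, 13.9 and 15.3 TPM under anti-PD-1. Those values overlap, and its log2 change was -0.45 ± 0.21 (adjusted p = 0.116). The median of the 6 tunnel proteins was -0.57 in TPM, -0.11 with median-ratio scaling and 0.04 with TPM rescaled without repeat entries and mitochondrially encoded genes, with 2 called lower under each. Whether Mrpl17 and Mrpl22 differed from the other tunnel proteins was not tested.

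The stalk of the large subunit recruits translation factors, and Mrpl10 is the base to which copies of Mrpl12 attach beside Mrpl11. Mrpl12 was at 67.1, 67.2, 77.9, 79.3 and 98.2 TPM under isotype and at 14.9, 32.4, 37.2, 42.3 and 48.8 TPM under anti-PD-1. Its log2 change was -1.21 ± 0.30 (adjusted p = 0.00982, limma), and that of Mrpl11 was -1.12 ± 0.25 (adjusted p = 0.00794), both without overlap of the groups. Mrpl10 was at 25.1, 25.2, 29.7, 29.9 and 30.6 TPM under isotype and at 9.41, 15.4, 24.8, 27.2 and 27.7 TPM under anti-PD-1. Only its 3 lowest anti-PD-1 values lay below the isotype range, and its log2 change of -0.50 ± 0.26 did not pass (adjusted p = 0.164). Mrpl58, a peptidyl-tRNA hydrolase built into the large subunit that can free stalled chains, changed by -1.0 ± 0.30 (adjusted p = 0.0209), with overlapping groups. Of the 6 listed proteins of the central protuberance, the crest of the large subunit, 5 fell, and Mrpl48 was the exception (log2 change -0.53, adjusted p = 0.111). That count was 1 with TPM rescaled without repeat entries and mitochondrially encoded genes.

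Of the 26 small subunit proteins 19 fell, with a median log2 change of -1.03. Mrps12, which lies at the decoding centre, was at 121, 128, 153, 156 and 229 TPM under isotype and at 18.6, 59.6, 59.6, 68.7 and 82.8 TPM under anti-PD-1. The groups did not overlap, and the log2 change was -1.54 ± 0.34 (adjusted p = 0.0081, limma). Sars2, the mitochondrial seryl-tRNA synthetase, starts 171 bases from Mrps12 on the other strand, so that the bases printed for Mrps12 fill most of the space between the starts. Sars2 was at 4.96, 5.12, 5.44, 6.36 and 7.41 TPM under isotype and at 1.92, 2.53, 4.64, 4.74 and 6.27 TPM under anti-PD-1. These values overlap, and its log2 change was -0.52 ± 0.24 (adjusted p = 0.119).

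The ends of the range among the small subunit proteins were Mrps23 and Mrps35, both particular to mitochondria. Mrps23 was at 4.89, 11.7, 13.1, 16.6 and 17.8 TPM under isotype, and under anti-PD-1 it was at 1.27, 6.52 and 8.78 TPM in 3 libraries and listed at 0 in the remaining 2. Its log2 change of -2.21 ± 0.68 passed (adjusted p = 0.0247) although the groups overlap. Mrps35 was at 33.6 to 53.2 TPM under isotype and at 13.8 to 56.4 TPM under anti-PD-1, with a log2 change of -0.27 ± 0.30 (adjusted p = 0.54). Among the abundant small subunit members, Mrps14 changed by -1.32 ± 0.30 (adjusted p = 0.0081) and Mrps21 by -0.84 ± 0.30 (adjusted p = 0.0452).

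Of the members whose symbols mislead, Mrps18a changed by -1.29 ± 0.31 (adjusted p = 0.00914, limma) and Mrps30 by -1.07 ± 0.28 (adjusted p = 0.0119), both without overlap. Mrps36, of the 2-oxoglutarate dehydrogenase complex, was at 240, 270, 302, 303 and 334 TPM under isotype and at 61.4, 98.4, 174, 187 and 251 TPM under anti-PD-1. Those groups overlap only at 240 and 251 TPM, and the log2 change was -1.06 ± 0.29 (adjusted p = 0.0158).

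**Figure D2:**
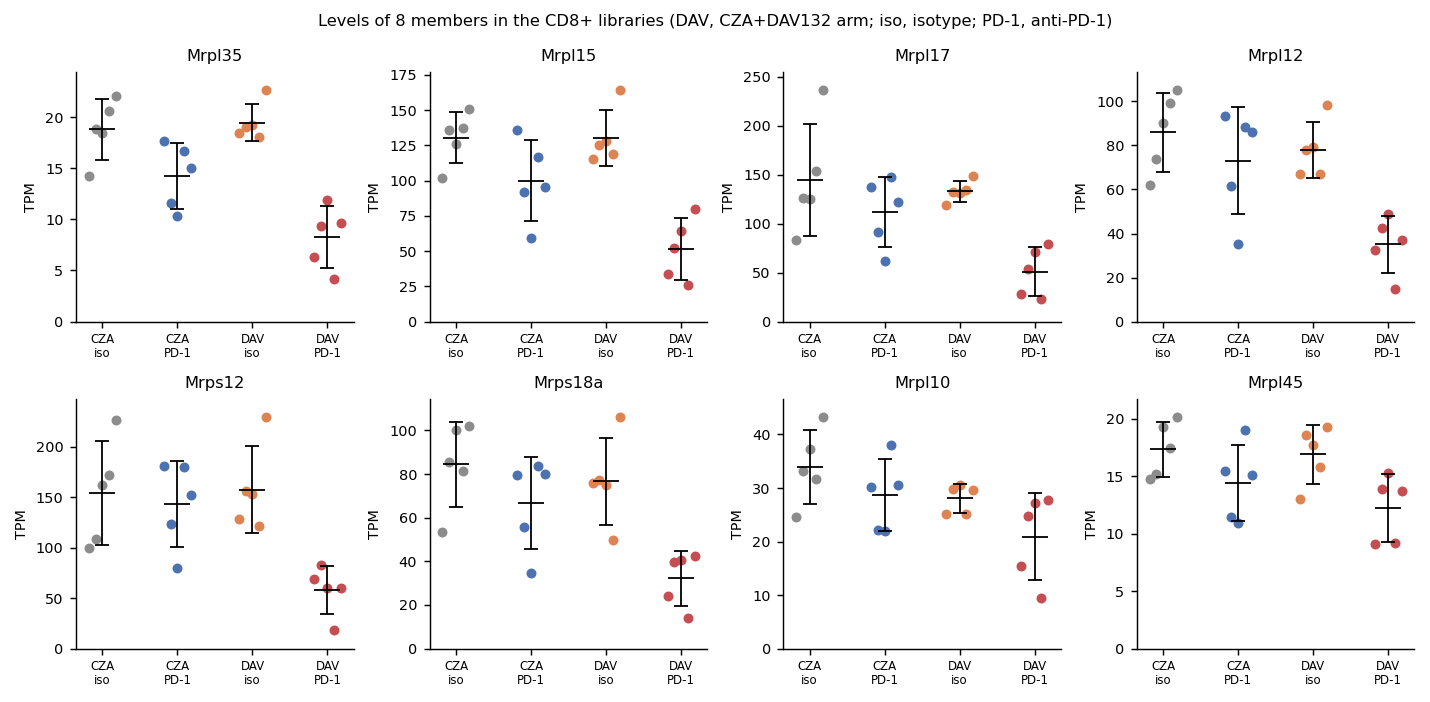
Levels in TPM (vertical axes, from 0) of 8 members in the 20 CD8+ libraries, with points for libraries and bars for the mean and SD of each group (n = 5). The CZA+DAV132 anti-PD-1 points lie below all CZA+DAV132 isotype points for the first 6 members and overlap them for Mrpl10 and Mrpl45.

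Members with and without a bacterial counterpart both fell. Among large subunit proteins, 25 of 30 with a bacterial counterpart were called lower (median log2 change -1.06) and 15 of 20 particular to mitochondria (-0.92). Among small subunit proteins, the counts were 14 of 17 (-1.06) and 5 of 9 (-0.91). With TPM rescaled without repeat entries and mitochondrially encoded genes these 4 counts were 16, 4, 9 and 0, and their medians were -0.45, -0.33, -0.44 and -0.29. The groups of 5 did not overlap for 41 of 77 members, against 12.1% of all genes tested whose anti-PD-1 values all lay below the isotype values. With members in 4 bins of mean level, 13 of the 20 lowest members were called, then 15 of 19, 15 of 19 and 17 of the 19 highest, with medians from -0.87 in the lowest bin to -1.10 in the third. The 35 members with NRF1, ETS or YY1 letters in the window had a median log2 change of -0.99 with 28 called, and the 33 without had -1.03 with 25 called.

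The level of the members depends on what else fills the library, and the number called moved with the scaling. Over all genes, 2509 were called lower and 533 higher. With median-ratio scaling, which sets the median gene's change near 0, 1829 were lower and 1478 higher, and with TPM rescaled without repeat entries and mitochondrially encoded genes, 1036 were lower and 1990 higher. Under these, 55 members were called lower (beside 14.3% of genes) and 30 members (beside 7.68%). The members' median was -0.57 and -0.41, and relative to the median of all genes it was -0.68 in TPM and -0.57 and -0.54 after scaling, with 73 and 69 of 77 members negative. When only the 2 groups compared entered the fit, 23 members were called lower, beside 8.35% of genes. The main fit shares an estimate of spread over the 4 groups, and the groups differed in it. The median over members of the within-group SD on the log2 scale was 0.746 under anti-PD-1 and 0.2 under isotype. In the CZA arm it was 0.315 under anti-PD-1 and 0.316 under isotype. The SEs and p-values of the main fit thus average over groups of unlike spread. After median-ratio scaling the summed level was 6361 to 8617 under isotype and 5018 to 5508 under anti-PD-1, without overlap and with libraries 16 (5155) and 19 (5200) inside the range of the others. There were 16 members called lower in the main fit and in each of 18 alternatives: Mrpl11, Mrpl12, Mrpl15, Mrpl17, Mrpl21, Mrpl22, Mrpl30, Mrpl32, Mrpl35, Mrpl40, Mrpl42, Mrps6, Mrps12, Mrps14, Mrps24 and Mrps28. Of the 7496 genes tested in all of these fits, 6.06% were called lower in each.

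**Figure D3:**
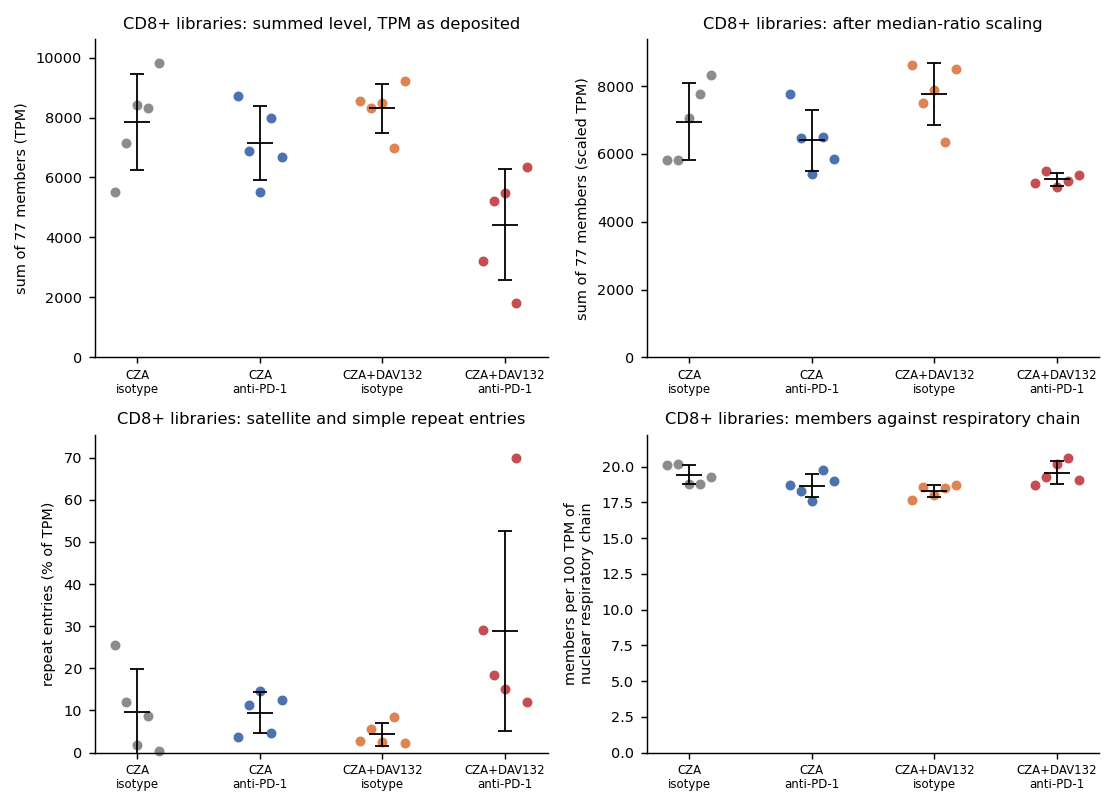
Points are the 20 CD8+ libraries and bars the mean and SD (n = 5 per group), with all axes from 0. The summed level of the members in TPM is lowest in CZA+DAV132 with anti-PD-1 (1817 to 6354), where repeat entries reach 69.9%. After median-ratio scaling that group spans 5018 to 5508. The ratio to the respiratory chain is 17.6 to 20.6 over all libraries. In the CZA+DAV132 arm it is 17.7 to 18.7 with isotype and 18.7 to 20.6 with anti-PD-1.

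Cell type markers were described for the same comparison. The summed level of the T cell list was 11708 to 14762 TPM under isotype and 3976 to 13282 TPM under anti-PD-1. The endothelial list of 3 genes was at 216 to 381 TPM and 431 to 2467 TPM, almost wholly from Pecam1, which T cells can also carry, while Cdh5, its defining gene, was listed at 0 in 12 of 20 CD8+ libraries. The macrophage list was at 74.6 to 752 TPM and 57.5 to 283 TPM, the fibroblast list at 6.74 to 98.2 TPM and 17 to 328 TPM, and the NK list at 129 to 289 TPM and 55.9 to 160 TPM. The dendritic cell list was at 3.84 to 6.16 TPM and 1.92 to 6.51 TPM, and the B cell list at 3.64 to 8.64 TPM and 1.3 to 6.32 TPM. Of the B cell markers, Ms4a1 was listed at 0 in 13 of 20 libraries and Cd79b in 0. The erythroid list was at 112 to 550 TPM and 110 to 840 TPM. By limma, 2 of 12 T cell markers, 5 of 12 macrophage markers and both tested NK markers were called lower, beside 19.4% of genes. Pecam1 was called higher, beside 4.12% of genes, and none of the 9 fibroblast, 4 erythroid and 3 dendritic cell markers tested passed. These counts moved with the scaling. With median-ratio scaling 1 T cell, 1 macrophage and 1 NK marker were lower, beside 14.3% of genes. With TPM rescaled without repeat entries and mitochondrially encoded genes, 0 T cell, 0 macrophage and 1 NK marker were lower, beside 7.68%. Called higher were Pecam1 and 1 fibroblast marker under both, and 1 T cell and 1 erythroid marker with the rescaled TPM. The part of these cells and of the repeat entries in the members' change was not tested.

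The partners of the members were described by lists of the same pathway, and their counts are to be read beside the 19.4% of all genes called lower. Among mitoribosomal proteins under other symbols, 2 of 5 fell (median log2 change -0.70). These were Chchd1 (-1.51, adjusted p = 0.0069, limma) and Aurkaip1 (-0.98, adjusted p = 0.0192), both of the small subunit. Of 26 genes for assembly of the ribosome and modification of its RNA, 6 fell (median -0.39), led by Malsu1, which keeps the subunits apart during assembly (-1.03, adjusted p = 0.0114), and by Mpv17l2 (-1.25, adjusted p = 0.0134). Of 14 translation factors, 4 fell (median -0.39), among them the elongation factor Gfm1 (-1.02, adjusted p = 0.00884) and the deformylase Pdf (-1.16, adjusted p = 0.0107). Of 20 mitochondrial aminoacyl-tRNA synthetases, 3 fell (median -0.40), with Fars2 (-1.59, adjusted p = 0.00398) and Yars2 (-1.05, adjusted p = 0.0139) of smallest p. Of 19 genes of mitochondrial transcription and RNA processing, 6 fell (median -0.37), with Tfam, the packaging factor of mitochondrial DNA, at -1.82 (adjusted p = 0.00767) and Trmt10c, a subunit of mitochondrial RNase P, at -1.10 (adjusted p = 0.00771). No gene of these lists rose past the threshold in TPM. The medians of the last 4 lists lie near the -0.34 of all genes, and their sign depends on the scaling: with median-ratio scaling they were -0.06, -0.06, -0.05 and 0.03 in the order given, with 3, 2, 2 and 4 genes called lower and 1, 1, 0 and 0 higher. With TPM rescaled without repeat entries and mitochondrially encoded genes they were 0.08, 0.07, 0.09 and 0.17, with 1, 1, 1 and 3 genes lower and 2, 2, 0 and 0 higher. The median of the first list stayed negative under these, at -0.25 and -0.10.

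The messenger RNAs that the mitochondrial ribosome translates did not pass the threshold. The 13 protein genes of mitochondrial DNA had log2 changes from 0.20 to 0.66, all positive and none called, with mt-Nd4l (0.66, adjusted p = 0.226) and mt-Nd5 (0.57, adjusted p = 0.343) of smallest p. Their median, 0.43, lies above the -0.34 of all genes, and with median-ratio scaling it was 0.91, with 1 gene called higher. The share of TPM in mitochondrially encoded entries was 4.06% to 5.25% under isotype. Under anti-PD-1 it ran from 1.35% in library 19 to 16.5% in library 16, so libraries lay on both sides of the isotype range. Of 78 tested nuclear genes of the respiratory chain, 68 fell (median -1.13). Among the cytosolic ribosomal proteins 27 of 78 fell, with a median of -0.75. With median-ratio scaling these counts were 64 of 78 (median -0.65) and 26 of 78 (-0.27), and with the rescaled TPM 52 of 79 (-0.48) and 20 of 78 (-0.11), while 1 respiratory chain gene was called higher under either scaling. Members took 17.6 to 20.6 TPM per 100 TPM of nuclear respiratory chain transcripts over the 20 CD8+ libraries. Per 100 TPM of cytosolic ribosomal protein transcripts they took 4.74 to 8.8 TPM. In the CZA+DAV132 arm the first ratio was 17.7 to 18.7 under isotype and 18.7 to 20.6 under anti-PD-1. The second was 6.1 to 8.52 under isotype and 4.74 to 7.87 under anti-PD-1. The ratio of large to small subunit sums was 1.31 to 1.64.

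**Figure D4:**
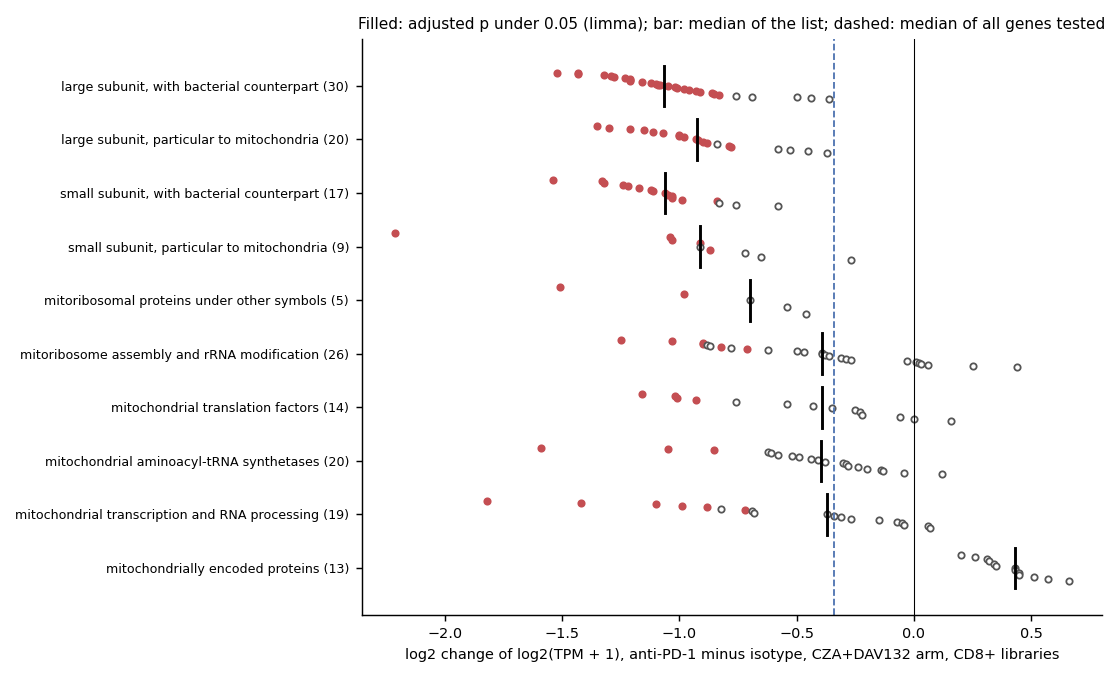
Log2 change between anti-PD-1 and isotype in the CZA+DAV132 arm, CD8+ libraries (horizontal axis), for the subunit proteins and the lists of partners (vertical axis, number tested in brackets; Mrps36, of neither subunit, is not drawn). Filled points passed the adjusted p of 0.05, bars mark list medians and the dashed line the median of all genes (-0.34). Of the rows drawn, the 4 rows of members hold most filled points. All 13 mitochondrially encoded genes lie to the right of 0. Not drawn are the nuclear respiratory chain (68 of 78 genes called lower) and the cytosolic ribosomal proteins (27 of 78).

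The same antibody comparison in the CZA arm gave no call. By limma, 0 of 77 members passed in either direction, and 1 had an unadjusted p under 0.05, beside 0.0155% of all genes called and 661 genes at that unadjusted p. The members' median log2 change was -0.21, against -0.02 for all genes. Mrps18b (-0.65 ± 0.31, adjusted p = 0.963), Mrpl1 (-0.48 ± 0.25, adjusted p = 0.997) and Mrpl3 (-0.49 ± 0.26, adjusted p = 0.997) had the smallest p. Mrps12 was at 99.2, 109, 162, 172 and 226 TPM under isotype and at 80.2, 123, 152, 180 and 181 TPM under anti-PD-1, which overlap widely. Mrpl17 was at 83, 125, 126, 154 and 236 TPM and at 61.6, 91.3, 122, 137 and 148 TPM. The 13 mitochondrially encoded genes were again all positive (median 0.25), with none called.

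The difference between the arms in the antibody effect was tested as an interaction, and 0 of 77 members passed by limma, with 0% of genes called. At an unadjusted p under 0.05 there were 36 members and 2036 genes. The members' median interaction was -0.83 on the log2 scale, against -0.37 for all genes. Mrps12 (-1.44 ± 0.49), Mrpl32 (-1.08 ± 0.39) and Mrps33 (-1.41 ± 0.51) had the smallest p, each with an adjusted p of 0.29. The fall in the CZA+DAV132 arm is therefore not shown to differ from the change in the CZA arm.

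Under anti-PD-1, CZA+DAV132 was set against CZA to compare recipients of stool exposed with and without DAV132. This comparison uses the same 5 CZA+DAV132 anti-PD-1 libraries as the one above. No member passed in limma, although 65 of 77 had an unadjusted p under 0.05, beside 0.0386% of genes called and 4338 genes at that unadjusted p. The median log2 change was -0.78, against -0.40 for all genes. Mrps12 was at 80.2, 123, 152, 180 and 181 TPM in the CZA arm and, as above, at 18.6 to 82.8 TPM in the CZA+DAV132 arm. Only the values of 80.2 and 82.8 TPM overlap, and the log2 change was -1.38 ± 0.34 (adjusted p = 0.0683, limma). Mrpl15 (-1.01 ± 0.27) and Mrpl17 (-1.21 ± 0.33) had the same adjusted p of 0.0683. Mrpl45 changed by -0.22 ± 0.21 (adjusted p = 0.448).

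Counts of calls there changed with the filter and with single libraries. With a filter at a mean of 5 TPM, 33 members were called lower, beside 17.5% of genes. Without CZA library 8, which had the lowest member sum of its group (5501 TPM), 29 were called (beside 10.3% of genes), and without CZA+DAV132 libraries 18 and 20 in turn, 44 (17%) and 63 (29.2%). Without libraries 16 and 19 together, 0 were called.

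Under isotype the FMT arms did not separate. By limma 0 of 77 members passed, and 0 had an unadjusted p under 0.05, beside 0% of genes called and 320 genes at that unadjusted p. Of the members 40 were negative and 37 positive. Mrpl3 (-0.38 ± 0.26), Mrpl23 (-0.59 ± 0.43) and Mrps18b (-0.36 ± 0.31) had the smallest p, each with an adjusted p of 1. Mrpl11 was at 13.8, 14.7, 18.5, 21.4 and 25.6 TPM in the CZA arm and at 16, 18.6, 18.7, 18.9 and 19 TPM in the CZA+DAV132 arm. A p that misses the threshold does not show that the arms were alike.

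In the libraries labelled bulk tumour 76 members were tested among 13326 genes, as Mrps23 fell below the filter. The median over members of the within-group SD on the log2 scale was 0.581 to 1.05 there and 0.2 to 0.746 in the CD8+ libraries. It was higher than in the CD8+ libraries for 3 of the 4 groups, and lower for CZA+DAV132 with anti-PD-1 (0.638 against 0.746). Members summed to 3684 to 3990 TPM in CZA with isotype, 3323 to 4028 TPM in CZA with anti-PD-1, 3402 to 3933 TPM in CZA+DAV132 with isotype and 1710 to 3528 TPM in CZA+DAV132 with anti-PD-1. The ranges of the first 3 groups overlap, and the lowest value of the last group is library T026, that with 51.1% repeat entries. Library numbers run from T982 to T991 in the CZA arm and from T021 to T030 in the CZA+DAV132 arm. Arm and number series therefore cannot be told apart in this set, and the labels do not say what the series stand for.

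Anti-PD-1 against isotype in the CZA arm gave 2 members called higher and none lower, beside 0.278% of genes called higher. Mrpl22 was at 0.412, 1.81, 2.09, 2.62 and 18.5 TPM under isotype and at 14.9, 26, 33.4, 39.6 and 51.2 TPM under anti-PD-1. The groups overlap through 1 isotype library, T991, at 18.5 TPM. The log2 change was 3.03 ± 0.56 (adjusted p = 0.0349, limma). Mrps22, a small subunit protein particular to mitochondria, was listed at 0 in 2 isotype libraries and was at 0.905, 1.17 and 1.65 TPM in the other 3, against 3.6, 7.53, 11, 14.8 and 40.2 TPM under anti-PD-1. Its groups did not overlap, and the log2 change was 2.95 ± 0.62 (adjusted p = 0.0438). In the annotation's transcripts, 29.8% of the 31-base words of Mrpl22 are shared with other genes, chiefly Gm6997, whereas Mrps22 shares 0.0502%. Gm6997 is not among the gene symbols of either set. Whether reads were divided between Mrpl22 and such genes was not tested.

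With each library left out in turn, the log2 change was 2.66 to 3.61 for Mrpl22 and 2.52 to 3.32 for Mrps22, while the adjusted p crossed the threshold in some fits. The call of Mrpl22 was lost without T982, T989 or T990 and that of Mrps22 without T987, T982, T984, T988, T989 or T990, with adjusted p-values up to 0.0707 and 0.0958 by limma. The third member by p, Mrpl41, pointed the other way. It was at 45.4, 89.6, 92.5, 102 and 106 TPM under isotype and at 19.1, 23.8, 28.5, 35.5 and 46.1 TPM under anti-PD-1, with a log2 change of -1.48 ± 0.43 that did not pass (adjusted p = 0.139). The median over the 76 members was 0.30, near the 0.25 of all genes.

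Mrpl22 was also the member called in CZA+DAV132 against CZA under isotype, which shares those CZA isotype libraries. It was at 15, 29, 36.1 and 63 TPM in the 4 CZA+DAV132 libraries, and the log2 change was 3.08 ± 0.60 (adjusted p = 0.0399, limma), beside 0.113% of genes called higher. Mrps22, at 1.71, 3.54, 15.4 and 18.2 TPM, changed by 2.29 ± 0.65 (adjusted p = 0.177). Mrps6, a small subunit protein, was at 3.65, 4.71, 5.64, 46.3 and 61.7 TPM in the CZA libraries and at 31.3, 44.2, 73.6 and 73.9 TPM in the CZA+DAV132 libraries, with a change of 1.94 ± 0.63 (adjusted p = 0.247). The call of Mrpl22 was lost without T986, T987, T022, T024 or T027, with adjusted p-values up to 0.132 and a log2 change of 2.71 to 3.66 over all libraries left out in turn.

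In the CZA+DAV132 arm anti-PD-1 against isotype gave 1 member called lower, beside 0.21% of genes called lower, and none higher. Mrpl42, a large subunit protein particular to mitochondria, was at 171, 256, 260 and 272 TPM under isotype and at 57.7, 67.6, 79, 88.8 and 134 TPM under anti-PD-1. The groups did not overlap, and the log2 change was -1.52 ± 0.28 (adjusted p = 0.0245, limma). Mrpl24 (-1.18 ± 0.34, adjusted p = 0.137) and Mrps9 (-1.81 ± 0.57, adjusted p = 0.173) were next by p. The members' median was -0.52, against -0.15 for all genes. The call of Mrpl42 was lost without T022, T024, T027, T021 or T023, with adjusted p-values up to 0.134, and also without T985 and T026 together. Its log2 change was -1.69 to -1.39 over all libraries left out in turn.

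Under anti-PD-1, CZA+DAV132 against CZA gave 0 of 76 members by limma and 0% of genes called, with 5 members and 1010 genes at an unadjusted p under 0.05. Mrpl30 was at 55.9, 71.5, 73.1, 88.6 and 115 TPM in the CZA arm and at 25.1, 29.9, 31.3, 39.2 and 41.1 TPM in the CZA+DAV132 arm. The groups did not overlap, but the log2 change of -1.24 ± 0.31 had an adjusted p of 0.274. Mrpl42 (-0.93 ± 0.27) and Mrps18a (-1.85 ± 0.54) each had an adjusted p of 0.317. The interaction of arm and antibody gave 0 members, beside 0.045% of genes, with 7 members and 1375 genes at an unadjusted p under 0.05. It was -3.91 ± 0.82 for Mrpl22 (adjusted p = 0.136, limma), -1.56 ± 0.39 for Mrpl42 (0.23) and -2.66 ± 0.90 for Mrps22 (0.367). Without library T991, 1 member passed the interaction.

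**Figure D5:**
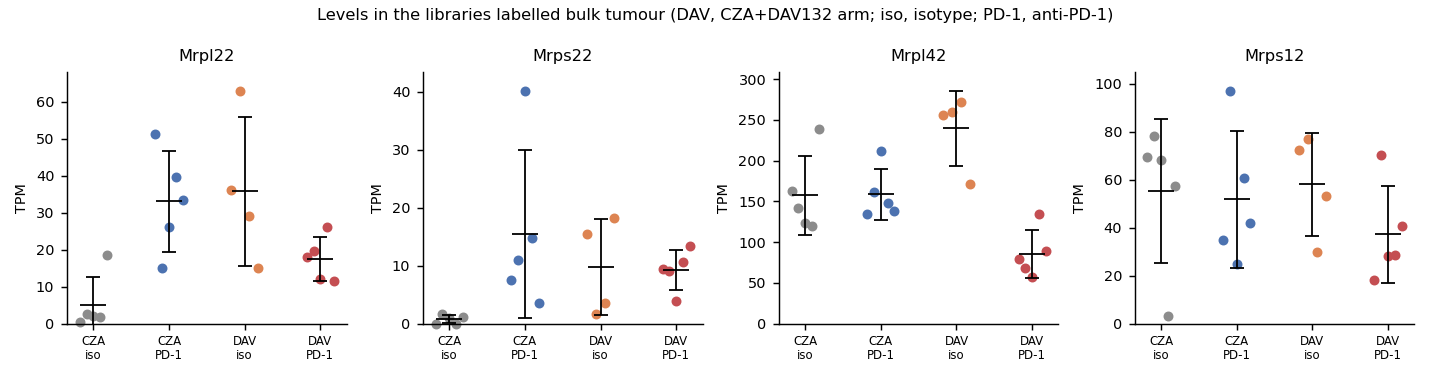
Levels in TPM (vertical axes, from 0) of Mrpl22, Mrps22, Mrpl42 and Mrps12 in the 19 libraries labelled bulk tumour, with points for libraries and bars for the mean and SD (n = 5 per group, 4 for CZA+DAV132 isotype). Mrpl22 and Mrps22 are low in CZA isotype libraries (at most 18.5 and 1.65 TPM), Mrpl42 is highest in CZA+DAV132 isotype, and Mrps12 has 1 CZA isotype library at 2.97 TPM.

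Of the members that fell in sorted cells within the CZA+DAV132 arm, Mrpl42 alone passed in the libraries labelled bulk tumour of the same arm by the main limma test. There Mrpl12 changed by -0.69 ± 0.40 (adjusted p = 0.622, limma), Mrps12 by -0.69 ± 0.68 (0.834), Mrps18a by -1.07 ± 0.57 (0.564) and Mrps36 by -0.52 ± 0.56 (0.85). Mrpl10 had groups without overlap and a change of -1.11 ± 0.52 (0.472). The difference between the sets was not tested. Members took 18.4 to 24 TPM per 100 TPM of nuclear respiratory chain transcripts in these libraries, a range that overlaps that of the CD8+ set, and 2.11 to 3.58 TPM per 100 TPM of cytosolic ribosomal protein transcripts.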

How the data were processed

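The authors deposited expression as TPM per gene symbol, in separate tables for the CD8+ and the bulk tumour libraries. Per the submitters' processing notes, reads were quantified with kallisto 0.45, and the build was GRCm38. Which annotation was used, and how transcripts were summed, is not given in the sources used here. Per the labels' protocols, 300 ng of total RNA were depleted of ribosomal RNA before strand-specific library preparation. All 39 value columns were used.

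Tests used log2(TPM + 1), a scale on which changes of low genes come out too small. A gene entered the test if 4 or more libraries reached 1 TPM (12942 and 13326 genes). For each set, limma 3.58.1 (R 4.3.3) fitted the 4 group means, moderating variances by empirical Bayes along a trend with the mean. The 5 contrasts had two-sided p-values adjusted over all genes (Benjamini-Hochberg) and called under 0.05. The method was tested on simulated data. Sums and ratios over members carry no test. Positions of genes are from GENCODE M21 (GRCm38). Sharing of sequence was counted as words of 31 bases in its transcripts.

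The members and lists were chosen with earlier results of these data known. Members are named by rule: the 3 of smallest p in a contrast with a mean of at least 5 TPM, the 3 highest and 3 lowest of a set, 9 with fixed roles (Mrpl10, Mrpl11, Mrpl12, Mrpl45, Mrpl58, Mrps12, Mrps30, Mrps18a and Mrps36), and any called against the majority. Mrpl17 in the CD8+ antibody contrasts, Mrps23, Mrps35, Mrpl48, Sars2 and the members called under all alternatives were chosen after their values were seen, as were the 4 promoters shown. The alternatives tried were fitting only the groups compared, setting the pseudocount to 0.1, dropping the filter, asking for a mean of at least 5 TPM, median-ratio scaling, TPM rescaled without repeat entries and mitochondrially encoded genes, array weights, each library left out, and no CD8+ libraries 16 and 19. Leaving out T985 and T026 was added after seeing the data. The result for a single marker gene is not reported here.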

Additional observations from a re-analysis of the deposited data

Results flagged for a closer look

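A library stood apart from the rest of its group in 6 of 104 groups of values tested, by the gap to its nearest neighbour over the range of the group (Dixon's 95% value), and chance flags about 1 group in 20. In the CD8+ libraries, Mrpl11 was at 16 TPM in CZA+DAV132 isotype library 14, against 18.6 to 19 TPM in the others. In the libraries labelled bulk tumour, CZA isotype library T987 had a ratio of large to small subunit sums of 4.05, against 1.55 to 2.05 in its group, and Mrps12 was at 2.97 TPM in it, against 57.4 to 78.3 TPM. Mrpl58 was at 137 TPM in CZA anti-PD-1 library T990, against 66.8 to 81.1 TPM. In CZA+DAV132 isotype library T024, Mrps18a was at 50.6 TPM, against 12 to 17.7 TPM, and Mrps36 at 120 TPM, against 69.4 to 70.4 TPM.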

How the results depend on the processing

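No call of a named member changed its direction. In 3237 refits of named members, 3120 kept their side of the threshold, 67 lost a call and 50 gained one. Most of these refits are of results not called in the main fit, which had no call to lose. A change of sign was counted only where a fit called the member. Among called results in the CD8+ libraries, the call was lost in 0 of 18 alternatives for Mrpl35 and in up to 13 of 18 for Mrps21. For the fall in CD8+ cells of the CZA+DAV132 arm (60 members), 30 were called with TPM rescaled without repeat entries and mitochondrially encoded genes, 23 with only the groups compared and 21 without libraries 16 and 19. Leaving out each library gave 37 (without 16, beside 11.5% of genes) to 69 (without 20, beside 29.8%). Those called were among the 60, except in fits that called more than 60 and without library 14 (55 of 56). For CZA+DAV132 against CZA under anti-PD-1 in CD8+ cells (0), 33 were called lower at a mean of at least 5 TPM (17.5% of genes). With array weights 9 were called, for which the share of all genes is not given here. Leaving out each library gave 0 to 63, the highest count beside 29.2% of genes. In the libraries labelled bulk tumour, the 2 members higher under anti-PD-1 in the CZA arm became 0 with no filter, array weights or only the groups compared and 1 with median-ratio scaling (0 to 2 with each library left out). The 1 higher in CZA+DAV132 under isotype became 0 with no filter, median-ratio scaling, array weights or only the groups compared (0 to 2). The 1 lower under anti-PD-1 in the CZA+DAV132 arm became 0 with only the groups compared and without T985 and T026 (0 to 1). Array weights gave 1 lower in CZA+DAV132 against CZA under anti-PD-1, and the interaction gave 0 to 1 lower with each library left out. All other counts were 0 throughout, at 0 to 0 with each library left out. The cause of these changes was not tested. With only the groups compared, the interaction has no separate fit. No paired analysis was possible because the groups share no replicate numbers in the labels. Depth is unknown from TPM, so counting error could not be separated from the spread between libraries.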
